A study of Mus musculus with 10 samples.

Results

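The genes Nfe2, Nfe2l1, Nfe2l2, Mafk, Mafg, Maff, Bach1 and Bach2 encode the large subunits, small partners and repressors that bind NF-E2 sites, and open chromatin around them was followed while GATA1 was switched on in erythroid cells. The 8 genes were chosen by name from 21853 protein-coding genes. For each gene, every peak summit from 100 kb before to 100 kb after its annotated span was collected, which gave 100 of the 28981 open regions found in the whole experiment. Accessible DNA was mapped by ATAC-seq, a method that uses Tn5 transposase to cut and tag open chromatin. The cells were G1E-ER4, a clonal mouse erythroid line that lacks Gata1 in every group and expresses GATA1 fused to the ligand-binding domain of the estrogen receptor. All cells were grown in stem cell factor and erythropoietin, and β-estradiol at 1e-07 M activated the fusion protein for 0 h (untreated), 2 h, 6 h, 12 h or 24 h. Each of these 5 groups had 2 libraries, 10 in all.

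NF-E2 is a dimer of NFE2, a large CNC-type bZIP protein, and a small MAF protein (MAFK, MAFG or MAFF), and the relatives NFE2L1 and NFE2L2 pair with the same partners. The large subunit carries the activation domain, whereas the small MAF proteins have none and contribute DNA binding. BACH1 and BACH2 also pair with small MAF proteins and repress many of the same sites, and heme binding releases BACH1 from DNA. In red cell precursors NF-E2 acts at the globin locus control regions, and NFE2L2 is best known for switching on genes of the oxidative stress response.

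Regions are named below by gene and by the distance of their median summit from the gene's most upstream transcript start, counted positive in the direction of transcription. The sequences below are 200 bases of mouse build mm10 around the median summit, plus strand, taken from the RefSeq copy of that assembly. They are shown for gene promoters and other named regions that held an NF-E2 site, an AP-1 core or a TAL1-GATA composite, or that were gained or lost at 24 h. The AP-1 core was TGANTCA, the NF-E2 site was TGANTCA with TGC directly before it, the GATA motif was AGATAA or TGATAA, and the TAL1-GATA composite was CTG, then 7 or 8 bases, then a GATA motif. Both strands were read, each NF-E2 site overlaps an AP-1 core and each composite overlaps a GATA motif, and capitals mark any of these motifs. The Bach1 promoter is cut to 30 bases around its AP-1 core because that core lies in the 5′ untranslated exon. In coordinates, they were chr15:103251734-103251933 for Nfe2 +6.6 kb, chr15:103258422-103258621 for Nfe2 −0.1 kb, chr15:103281039-103281238 for Nfe2 −22.7 kb, chr15:103307281-103307480 for Nfe2 −49.0 kb, chr5:139830803-139831002 for Mafk +39.4 kb, chr16:87698987-87699016 for Bach1 +0.0 kb, chr16:87700074-87700273 for Bach1 +1.2 kb and chr16:87707347-87707546 for Bach1 +8.5 kb.
Nfe2 +6.6 kb: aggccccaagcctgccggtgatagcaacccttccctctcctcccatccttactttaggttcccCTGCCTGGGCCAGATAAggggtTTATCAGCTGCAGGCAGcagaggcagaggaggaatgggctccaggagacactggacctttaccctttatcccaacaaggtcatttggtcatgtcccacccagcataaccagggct
Nfe2 −0.1 kb: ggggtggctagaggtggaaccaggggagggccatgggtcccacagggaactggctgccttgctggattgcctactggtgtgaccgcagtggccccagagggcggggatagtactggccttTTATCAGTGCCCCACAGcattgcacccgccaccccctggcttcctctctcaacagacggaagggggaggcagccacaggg
Nfe2 −22.7 kb: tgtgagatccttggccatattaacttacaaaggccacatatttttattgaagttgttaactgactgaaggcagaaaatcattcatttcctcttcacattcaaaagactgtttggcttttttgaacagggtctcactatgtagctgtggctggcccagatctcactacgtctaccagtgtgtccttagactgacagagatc
Nfe2 −49.0 kb: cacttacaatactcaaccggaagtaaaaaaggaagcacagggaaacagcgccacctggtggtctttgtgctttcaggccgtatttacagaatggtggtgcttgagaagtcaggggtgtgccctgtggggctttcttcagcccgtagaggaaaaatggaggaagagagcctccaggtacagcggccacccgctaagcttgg
Mafk +39.4 kb: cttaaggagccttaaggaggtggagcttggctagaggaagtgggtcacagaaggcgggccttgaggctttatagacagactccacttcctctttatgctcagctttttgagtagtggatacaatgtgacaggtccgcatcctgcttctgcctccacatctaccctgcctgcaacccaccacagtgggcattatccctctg
Bach1 +0.0 kb: gcgcagagggagTGAGTCAcctgaccgccg
Bach1 +1.2 kb: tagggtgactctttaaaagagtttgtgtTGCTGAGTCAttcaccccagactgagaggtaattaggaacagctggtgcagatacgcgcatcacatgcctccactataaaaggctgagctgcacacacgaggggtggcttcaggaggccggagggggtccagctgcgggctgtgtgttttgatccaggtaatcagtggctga
Bach1 +8.5 kb: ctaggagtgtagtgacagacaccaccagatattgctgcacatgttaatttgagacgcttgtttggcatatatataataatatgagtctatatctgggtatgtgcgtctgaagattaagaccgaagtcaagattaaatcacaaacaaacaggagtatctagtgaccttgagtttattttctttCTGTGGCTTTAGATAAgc

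The 10 deposited lists held 10698 to 19859 peaks on chromosomes 1 to 19, X and Y, and no read totals, so the depth of sequencing could not be told and an absent peak says only that none was called. The study describes the 2 libraries of a time point as independent experiments. All comparisons with 0 h shared the same pair of untreated libraries, and an exact permutation test of 2 against 2 libraries cannot give a p below 0.333. The labelled cell type was checked by its marker promoters, and those of Klf1, Epor and Tfrc were listed in all 10 libraries, that of Tal1 in 2 libraries and that of Alas2 in none. Promoters of the other blood markers Cd3e, Csf1r, Elane and Itgam were listed in 0 of 10 libraries, as were those of Alb, Krt5 and Neurod1, whereas that of Col1a1 was listed in 8.

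Around the 8 genes, 12 of the 100 regions lay at a promoter of the gene itself (within 1 kb of a protein-coding transcript start), 33 at the promoter of a neighbouring gene, and 55 were distal, meaning over 1 kb from any such start. Of the distal regions, 30 were intergenic, 20 intronic, 3 in coding exons and 2 in untranslated exons. In all 10 libraries were 7 of the 12 own promoter regions (58.3%) and 14 of the 33 neighbouring ones (42.4%), beside 48.7% of all 10309 promoter regions, and 3 of the 55 distal regions. The distal share, 5.45%, was near that of all 18672 distal regions, 6.52%, and 41.8% were in 1 library alone, against 39.5%. The member windows held 42 to 74 summits per library, or 0.350% to 0.419% of each list.

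**Figure D1:**
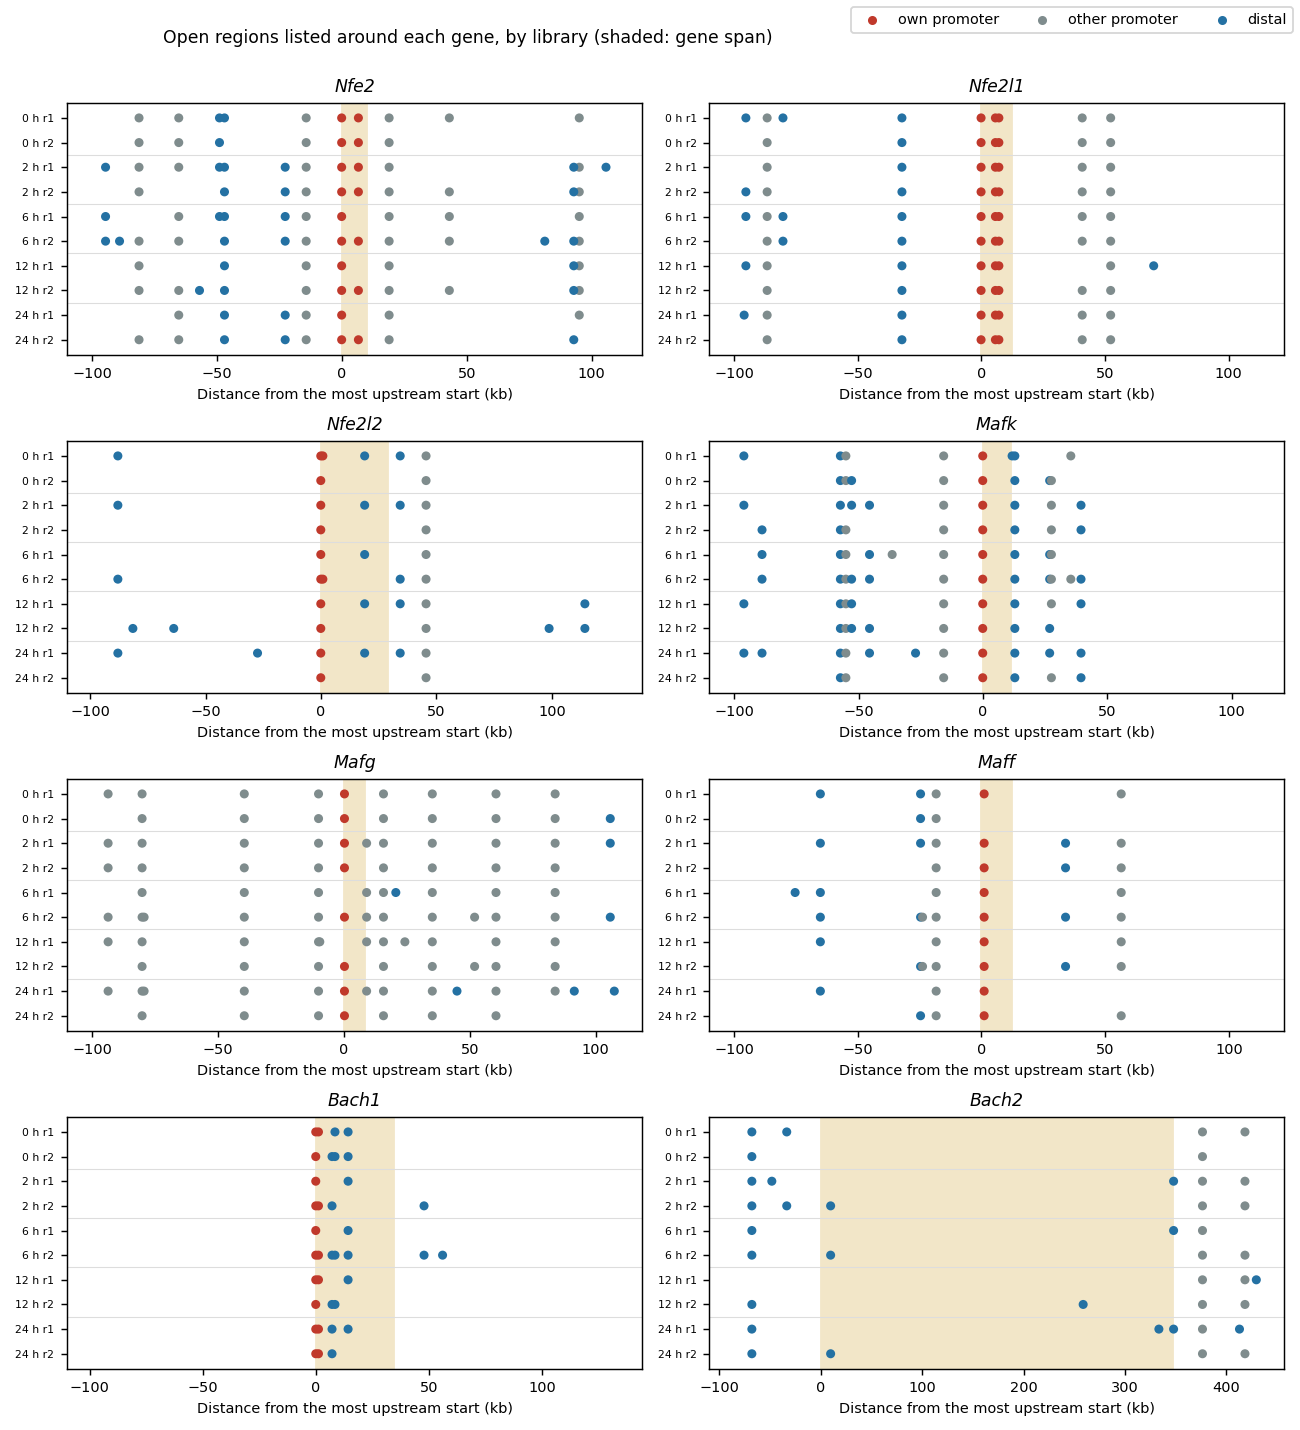
Each panel shows 1 gene, with distance in kb from its most upstream start on the horizontal axis, the 10 libraries as rows (r1 and r2 are replicates) and the gene span shaded; each dot is an open region listed in that library, coloured by class. The promoter dots form unbroken columns at Nfe2, Nfe2l1, Nfe2l2, Mafk and Bach1, whereas most distal dots skip libraries and Bach2 has no dot at its starts.

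Promoters of 5 of the 8 genes, Nfe2, Nfe2l1, Nfe2l2, Mafk and Bach1, were listed in all 10 libraries, beside 27.0% of all protein-coding genes. With every list cut to its 10698 highest-scoring peaks, 4 of the 8 were, without Mafk, whose promoter ranked 10889.5 in 12 h replicate 1. The promoter of Maff was in 9 libraries, that of Mafg in 8, and none of the starts of Bach2 had a region in any library. Within each list, peaks were ranked by score, −log10 of the q-value that the peak caller gave the peak, with rank 1 the highest and ties given their mean rank. Ranks were used because the score is not scaled between libraries.

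Among the large subunits, Nfe2 (chr15:103248212-103258403, minus strand) encodes the blood-specific subunit of NF-E2 and had the promoter region with the best median rank of the 12, 662. Its main promoter region, −0.1 kb (chr15:103258231-103258818), ranked 248.5 and 1761 in the 0 h libraries (replicate 1 and then replicate 2, here and below), 286 and 963 after 2 h, 270 and 1299.5 after 6 h, 788.5 and 916.5 after 12 h, and 536 and 440 after 24 h. It was thus in the top 1.6% to 15.1% of every list, and the untreated pair spanned the whole range of the other 8 libraries. The region holds a TAL1-GATA composite that begins 20 bases after its median summit as read on the plus strand, printed above. A second promoter region, +6.6 kb in an intron of Nfe2 and beside internal transcript starts (chr15:103251512-103252151), holds a pair of composites that face each other with GATA motifs 5 bases apart. It was listed in 7 of 10 libraries, both at 0 h (ranks 12587.5 and 7142.5), both at 2 h (10589.5 and 10730) and replicate 2 alone at 6 h (10202.5), 12 h (13039) and 24 h (7543.5).

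Nfe2l1 (chr11:96817414-96829968, minus strand) encodes the broadly expressed subunit that drives proteasome genes, and all 3 of its promoter regions were in all 10 libraries. The first, −0.1 kb (chr11:96829421-96830466), ranked 1336.5 and 1206.5 in the untreated pair, 957 and 527 after 2 h, 3124.5 and 2047 after 6 h, 6217 and 886.5 after 12 h, and 2939.5 and 501 after 24 h. The other two lay inside the gene at +5.7 kb (chr11:96823978-96824576, ranks 1009 to 8966) and +7.1 kb (chr11:96822505-96823155, ranks 2321 to 8944). At 24 h in replicate 1 the +5.7 kb region outranked the first promoter, 1009 against 2939.5. At 12 h in replicate 1 both inner regions outranked it, +7.1 kb at 2357.5 and +5.7 kb at 4742 against 6217. The best-ranked promoter region was thus not the same in every library.

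Nfe2l2 (chr2:75675513-75704641, minus strand), the stress-response subunit, had its promoter region at −0.1 kb (chr2:75704196-75705388). It ranked 1852 and 1308 in the untreated pair, 3330 and 421 after 2 h, 4706 and 1465 after 6 h, 3456 and 1020 after 12 h, and 6824 and 1310 after 24 h. All 4 treated replicate 1 libraries ranked below both untreated libraries, while the treated replicate 2 libraries ranked between 421 and 1465, so by rank the groups overlapped at every time point. As a share of list length, the 24 h pair was at the top 43.8% and 12.2%, against 12.1% and 11.2% in the untreated pair. The values of 24 h replicate 2 (12.2%) and 0 h replicate 1 (12.1%) were almost equal. How many other promoters showed this order was not counted. A weaker region at +0.8 kb was listed only in 0 h replicate 1 and 6 h replicate 2.

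Among the small partners, Mafk (chr5:139791513-139802653, plus strand), the small MAF first found in NF-E2 of erythroid cells, had a promoter region at −0.1 kb (chr5:139791092-139791728) that ranked 6987 and 2120.5 in the untreated pair, 8092 and 3096 after 2 h, 7141 and 1477 after 6 h, 10889.5 and 2812 after 12 h, and 6650 and 3037.5 after 24 h. The 5 replicate 1 ranks, 6650 to 10889.5, did not overlap the 5 replicate 2 ranks, 1477 to 3096, at any time. This separation was singled out after the values were seen, and its share over all promoters was not counted. Mafg (chr11:120625117-120633600, minus strand), which encodes a closely related partner, had a promoter region at +0.2 kb (chr11:120632500-120633910) that ranked 7303 and 7954 in the untreated pair, 13279.5 and 12882.5 after 2 h and 10513.5 and 8561.5 after 24 h. At 6 h and 12 h it was listed in replicate 2 alone, at ranks 5745 and 4003.

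Maff (chr15:79346621-79359076, plus strand), a stress- and cytokine-inducible small MAF, had a promoter region at +1.1 kb (chr15:79347248-79348412), in an untranslated exon. It ranked 10189.5 in 0 h replicate 1 and was not listed in 0 h replicate 2, then ranked 12178 and 7977 after 2 h, 4533.5 and 6898 after 6 h, 7404.5 and 7971.5 after 12 h, and 6294 and 8427 after 24 h. As a share of its list, 24 h replicate 2 was at the top 78.8%, below the untreated library at 66.8%, and the 6 h and 12 h libraries were at 31.9% to 57.6%. Without the replicate block this promoter had the lowest trend p of the 7, and it missed the threshold. Correlations are given so that positive values mean a place nearer the top of the list at later times. Spearman's rho with hours was 0.59 (exact permutation p = 0.0831, two-sided, n = 10; adjusted p = 1 over 9468 promoters) and Pearson's r was 0.46 (exact permutation p = 0.185). For both, the unlisted 0 h replicate 2 was set to rank 19860, and without that library rho was 0.45. Without the 24 h libraries rho was 0.73 (exact permutation p = 0.0548, n = 8) and r was 0.57 (exact permutation p = 0.130).

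Of the repressors, Bach1 (chr16:87698945-87733346, plus strand), the heme-sensing member, had a promoter region at the start itself, +0.0 kb (chr16:87698559-87699498), that ranked 1961.5 and 2339.5 in the untreated pair, 5973.5 and 2417 after 2 h, 2811.5 and 1820.5 after 6 h, 11123.5 and 1935.5 after 12 h, and 5377 and 3410 after 24 h. A second region at +1.2 kb in an intron (chr16:87699793-87700489) was listed in 6 libraries, including both at 24 h (9593.5 and 8059.5), and at 12 h in replicate 1 it outranked the first, 6661 against 11123.5. Both Bach1 promoter regions carry an AP-1 core, and at +1.2 kb the core is part of a full NF-E2 site, printed above. Bach2 (chr4:32238804-32586108, plus strand), best known in lymphocytes, differed from its relative: none of its 3 transcript starts was listed, and the regions in its 547 kb window were 9 distal ones and the promoters of Casp8ap2 and Mdn1.

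**Figure D2:**
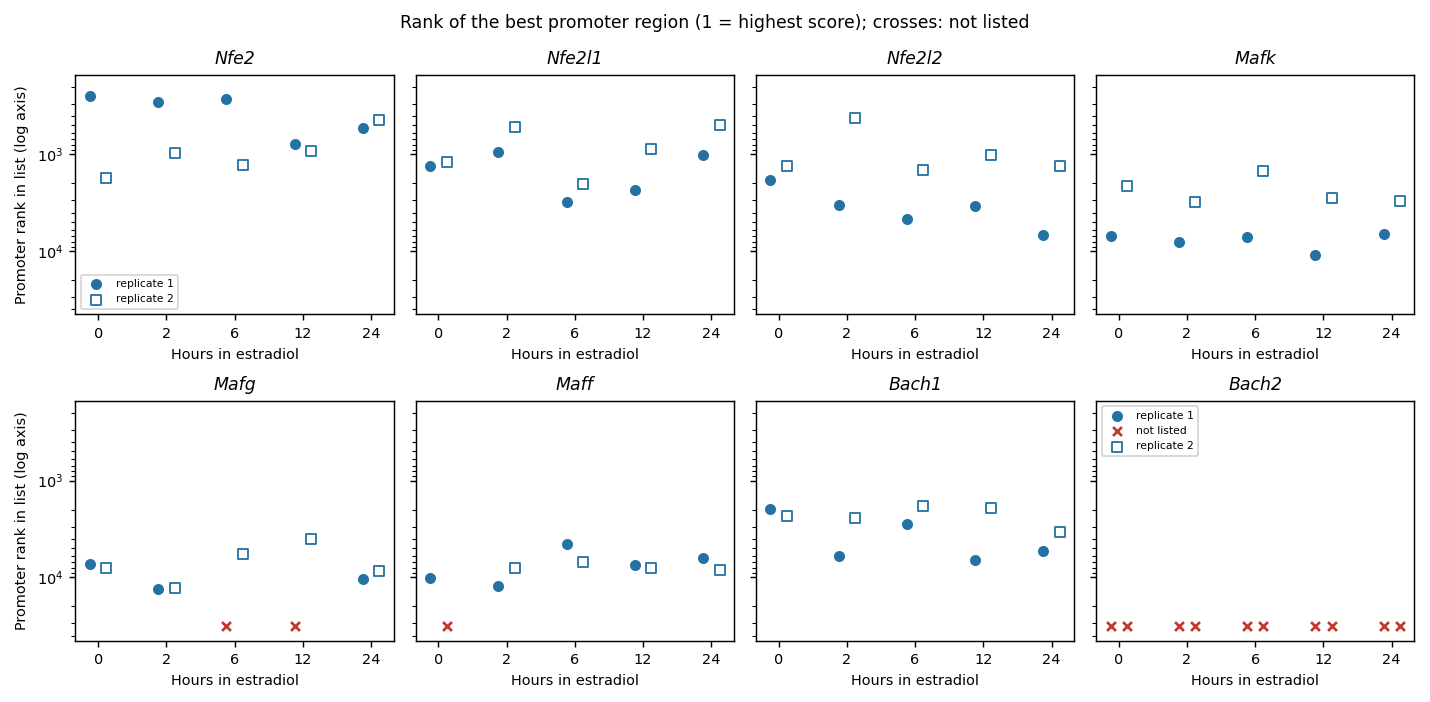
Rank of each gene's best promoter region within each list (log axis, inverted so that high-scoring peaks are at the top) against hours in β-estradiol on evenly spaced positions; filled circles are replicate 1, open squares replicate 2, and crosses mark libraries in which no promoter region was listed. Nfe2 has the highest circle at every time, the crosses at Maff and Mafg are at 0 h, 6 h and 12 h, and Bach2 has crosses only. At Mafk every square lies above every circle, an order not counted over all promoters.

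Across the whole table, the rank of the best promoter region was tested against hours by an exact permutation test of Spearman's rho over 113400 arrangements, whose smallest possible p is 1.76e-05. Over the 7 genes with a listed promoter, rho ran from −0.34 (Bach1) to 0.59 (Maff), with a median of −0.02 beside 0.02 over all promoters. None of the 7 passed at an unadjusted p under 0.05, beside 4.24% of 9468 promoters, and none passed after Benjamini-Hochberg adjustment there or anywhere in the table. Nfe2 had a rho of 0.05 (exact permutation p = 0.918), Nfe2l1 0.20 (exact permutation p = 0.602), Nfe2l2 −0.30 (exact permutation p = 0.420), Mafk −0.02 (exact permutation p = 0.971), Mafg −0.09 (exact permutation p = 0.821) and Bach1 −0.34 (exact permutation p = 0.341). Taken separately, the Nfe2l1 regions at −0.1, +5.7 and +7.1 kb had rho of −0.07, 0.25 and −0.49 (exact permutation p = 0.860, 0.508 and 0.160).

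At several of these promoters the replicate numbers differed in the same direction at every time. The best promoter region ranked nearer the top in replicate 2 than in replicate 1 at 5 of 5 times for Nfe2l1, Nfe2l2 and Mafk, at 4 of 5 for Bach1 and at 1 of 5 for Nfe2. As a share of list length the order turned at 0 h for Nfe2l1 (top 8.8% in replicate 1 and 10.3% in replicate 2) and at 24 h for Nfe2 (top 3.4% and 4.1%). These 3 of 5 genes compare with 14.2% of the 5891 genes with a promoter in all 10 libraries, whereas 0 of 5 had replicate 1 nearer the top at every time, beside 5.69% of all. With a replicate block, which ranks and permutes within replicate numbers, no promoter of the 9468 passed after adjustment either, and 409 had an unadjusted p under 0.05. For Maff, rho was then 0.45 (exact permutation p = 0.246), and Nfe2l2 had the lowest p of the 7, with a rho of −0.60 (exact permutation p = 0.109). One distal region followed the replicate number outright: Nfe2l2 +18.9 kb, in an intron of Nfe2l2 (chr2:75685384-75686026) and singled out after its values were seen, ranked 2145.5, 7561.5, 4318, 7547.5 and 4318 in the replicate 1 libraries from 0 h to 24 h and was in no replicate 2 library. Only 0.0897% of all regions were in every replicate 1 and no replicate 2 library, and the opposite pattern, at 0.0552% of all regions, was seen at none of the 100.

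Distal regions were most numerous around Mafk, Nfe2 and Bach2. Mafk had 10 distal regions in its window, more than 94.6% of protein-coding genes, and Nfe2 and Bach2 had 9 each, more than 91.8%, although the window of Bach2 was 547 kb long beside 210 kb for Nfe2. Around Nfe2, the untreated pair listed 2 and 1 distal regions, 6 and 3 after 2 h, 4 and 6 after 6 h, 2 and 3 after 12 h, and 2 and 3 after 24 h. The counts of 6 came from the longest lists, 2 h replicate 1 (16115 peaks) and 6 h replicate 2 (19859 peaks). The count of 1 came from 0 h replicate 2 (11698 peaks), whereas the shortest list, 24 h replicate 2 (10698 peaks), had 3. How many other genes had higher counts at 2 h and 6 h was not counted. Around Mafk, the untreated pair listed 4 and 4, followed by 6 and 4 after 2 h, 5 and 7 after 6 h, 5 and 5 after 12 h, and 8 and 3 after 24 h, where the pair differed most. With every list cut to its 10698 highest-scoring peaks, 0 of the 8 genes passed the trend test of distal counts after adjustment, and 0 at an unadjusted p under 0.05.

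**Figure D3:**
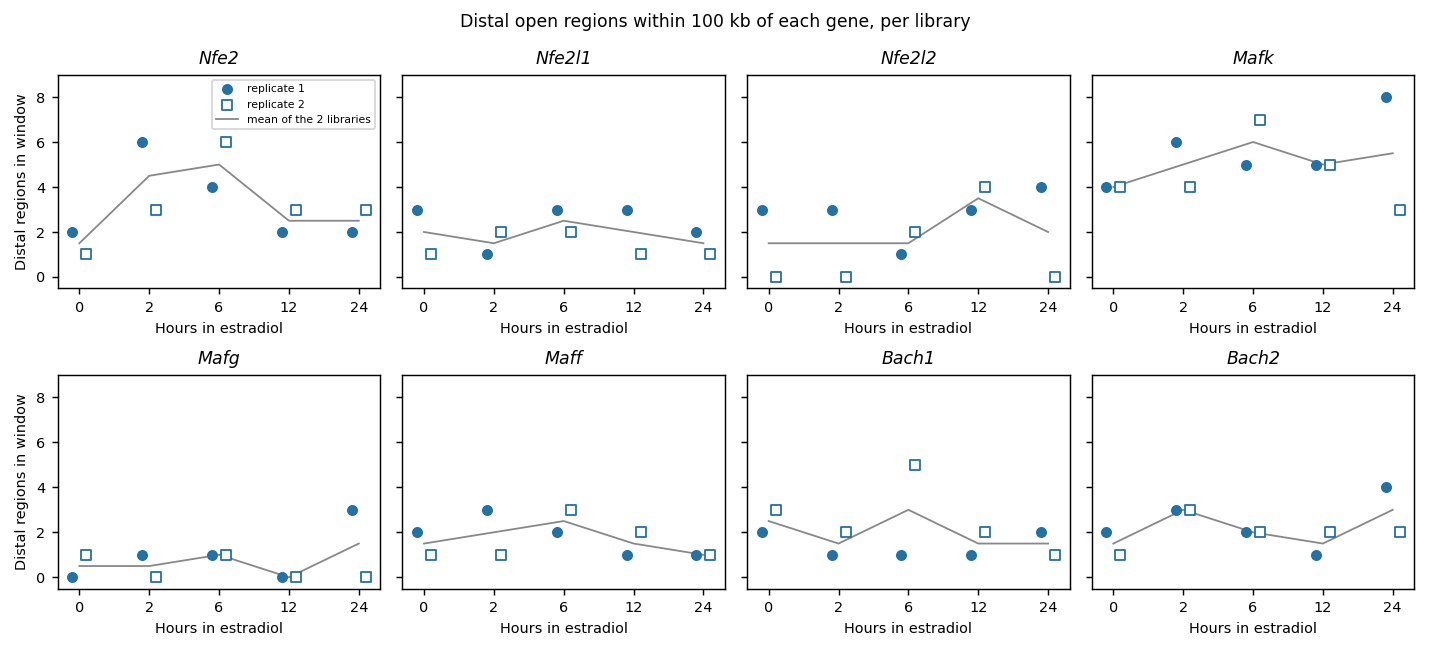
Number of distal open regions within 100 kb of each gene (vertical axis) against hours in β-estradiol on evenly spaced positions; filled circles are replicate 1, open squares replicate 2, and the grey line joins the means of the 2 libraries. The mean at Nfe2 is 1.5 in untreated cells, 4.5 after 2 h, 5 after 6 h and 2.5 in both later pairs, and Mafk has the highest single count, 8.

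The number of distal regions passed the same exact permutation test against hours at none of the 8 genes. The values of rho ran from −0.34 at Bach1 to 0.32 at Nfe2l2, with the lowest unadjusted p at 0.337. Thus 0 of 8 passed at an unadjusted p under 0.05, beside 3.81% of the 16158 genes whose distal count varied between libraries. No gene in the table passed after adjustment. The test looks for a steady rise or fall and is not suited to counts that are higher in mid-course, as those around Nfe2 were, and that pattern, seen in these counts, was not tested.

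The steadiest distal regions were those in all 10 libraries, and there were 3. Nfe2l1 −32.1 kb (chr11:96861739-96862425, intergenic) ranked 2546 to 7693. Mafk −57.3 kb (chr5:139733913-139734649) lies in an intron of Micall2, holds 2 GATA motifs and ranked 2236.5 to 9098. Mafk +12.8 kb (chr5:139803825-139804726), at an untranslated exon of Tmem184a just past the end of Mafk, also holds 2 GATA motifs and had the best median rank of the 3, with ranks of 3631 and 3978.5 in the untreated pair, 760.5 and 4161 after 2 h, 3073.5 and 4050 after 6 h, 1539 and 4383 after 12 h, and 2687 and 1342 after 24 h. Over the whole course the trend of Mafk +12.8 kb did not pass the test (rho 0.27, exact permutation p = 0.460).

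Gained regions were those that both treated libraries of a time listed and neither untreated library did, and lost regions those that both untreated libraries listed and neither treated library of that time did. Of the 100 regions, 4 were gained and 1 lost at 2 h, beside 2.67% and 1.15% of all regions. At 6 h, 5 were gained and 0 lost, beside 4.08% and 0.759%. At 12 h, 2 were gained and 1 lost, beside 2.47% and 1.88%, and at 24 h, 2 were gained and 2 lost, beside 1.71% and 3.51%. The shares of the 100 regions lay near those of all regions, and no p can be given for a presence rule on 2 against 2 libraries. With every list cut to 10698 peaks, the windows held 73 regions. Of these, 2, 3, 0 and 3 were gained in order of time, and 3, 2, 2 and 1 were lost. No share over all regions was computed for the cut lists, so these counts cannot be set against the percentages above. In the full lists, 11 regions changed, 9 gained and 2 lost, beside 12.1% of all regions that changed at any time. Of the 11, 10 were distal (90.9%, beside 78.5% of all changed regions), and none was a promoter of the 8 genes. Of the 9 gained regions, 6 met the rule at 1 time point alone.

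Nfe2 had 4 of the 11 changed regions. Nfe2 −22.7 kb (chr15:103280669-103281904), in an intron of the neighbouring gene Copz1, was absent from both 0 h lists, ranked 8077.5 and 7393 after 2 h and 8008.5 and 13558 after 6 h, was absent again from both 12 h lists, and ranked 12635.5 and 8767.5 after 24 h. It was therefore gained at 2 h, 6 h and 24 h, the most of any region around the 8 genes. Nfe2 +92.8 kb (chr15:103165274-103165917, intron of Smug1) was gained at 2 h (11900.5 and 12065.5) and 12 h (11576 and 7563), and replicate 2 alone listed it at 6 h (11927.5) and 24 h (4181). Nfe2 −94.6 kb, in an intron of the integrin gene Itga5, was gained at 6 h only (13990 and 12698.5), after a listing in 2 h replicate 1 alone.

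The fourth was a loss. Nfe2 −49.0 kb (chr15:103306952-103307708, intergenic) ranked 5213 and 9749.5 in the untreated pair, 10101.5 in 2 h replicate 1 and 11966 in 6 h replicate 1, and was in no other library. Both untreated libraries listed it and all 4 libraries at 12 h and 24 h lacked it. A region 2 kb nearer the gene, Nfe2 −47.0 kb, was in 9 libraries, so 1 of these 2 neighbouring regions was lost. With unlisted libraries set to rank 19860, Nfe2 −49.0 kb was the only region of 74 tested around the 8 genes with an unadjusted p under 0.05, beside 7.07% of 20613 regions. Its rho was −0.79 (exact permutation p = 0.0111, n = 10) and its r was −0.65 (exact permutation p = 0.0381), and without the 24 h libraries rho was −0.81 (exact permutation p = 0.0286, n = 8) and r was −0.71 (exact permutation p = 0.0524). After Benjamini-Hochberg adjustment over all regions its p was 0.460, and no region in the table passed, the lowest adjusted p being 0.168.

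Mafk had 3 gained regions, all intergenic. Mafk +39.4 kb (chr5:139830546-139831236) was gained at 2 h (6089 and 10298) and 24 h (10975.5 and 7052), and was listed once each at 6 h (8252.5) and 12 h (11741.5). Mafk −88.8 kb and Mafk −45.6 kb were gained at 6 h, at ranks 11099.5 and 19751.5 and ranks 8728 and 10462. All 3 were absent from both untreated lists, and none was in all 8 treated lists.

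The remaining changes were spread over 4 genes. Nfe2l2 +114.3 kb was listed only at 12 h (13200.5 and 11474), Maff +34.0 kb, in an intron of Tmem184b, was gained at 2 h (15279.5 and 12915.5), and Mafg +9.0 kb, at the promoter of the sirtuin gene Sirt7, was gained at 6 h (5764 and 13635.5). Bach1 +8.5 kb (chr16:87707153-87707775), in an intron of Bach1, was listed in both 0 h libraries (14633 and 8914), in replicate 2 alone at 6 h (15777.5) and 12 h (12607.5), and in no library at 2 h or 24 h, and it was thus called lost at 2 h and 24 h. It holds the only TAL1-GATA composite among the 11 changed regions. No region around Nfe2l1 or Bach2 was gained or lost.

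**Figure D4:**
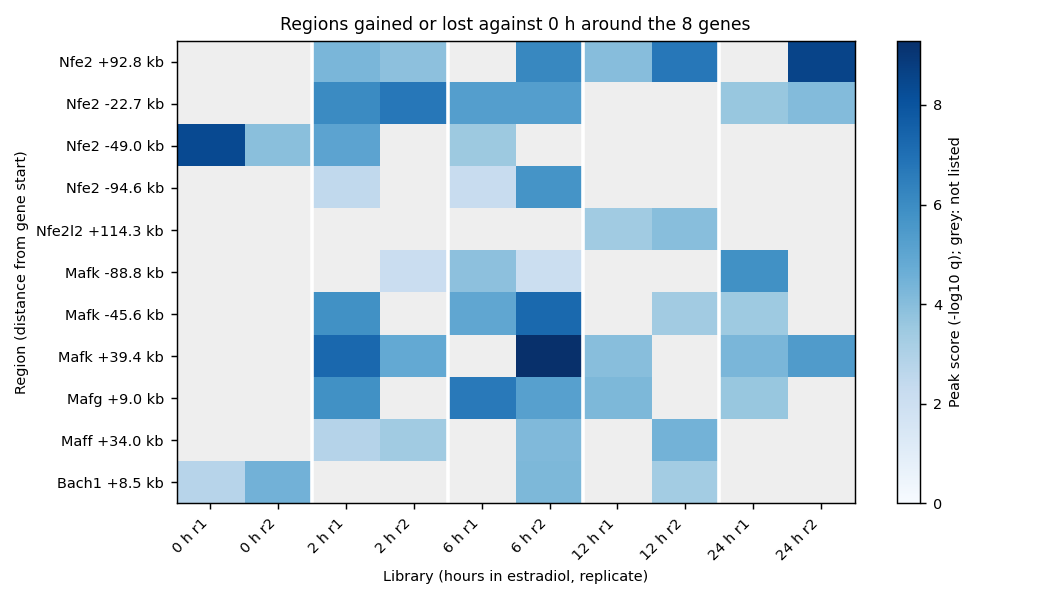
Score (−log10 q, colour scale) of the 11 regions gained or lost at any time point (rows, named by distance from the gene's start) in the 10 libraries (columns, r1 and r2 are replicates, white lines separate times); grey means not listed. Gained rows are grey in both 0 h columns, lost rows (Nfe2 −49.0 kb and Bach1 +8.5 kb) are coloured there, and only Nfe2 −22.7 kb is coloured in both replicates at 3 time points.

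In sequence, the regions around the 8 genes held a GATA motif within 100 bases of the median summit in 19 of 100 cases, beside 28.0% of all regions, and in 16 of 55 distal cases (29.1%), beside 39.1% of all distal regions. TAL1-GATA composites were in 4 regions (5.28% of all regions), namely both Nfe2 promoter regions, Bach1 +8.5 kb and Mafk −96.1 kb. An AP-1 core was in 3 regions (6.64% of all), and 2 of them had a full NF-E2 site (1.29% of all): Bach1 +1.2 kb and Mafg +44.9 kb, the latter listed in 24 h replicate 1 alone at rank 15434.5. Mafk −96.1 kb and Mafg +44.9 kb were singled out after their values were seen. These are matches of letters in a fixed window and do not show that a factor was bound.

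Other genes of the pathway were followed by their promoters. Of the relatives reported here, Mafa was listed in all 10 libraries (ranks 133 to 1319) and Nfe2l3, Maf and Nrl in none. Of 6 genes that control the stability of NFE2L2 and its relatives, Cul3, Rbx1, Btrc, Sqstm1 and Gsk3b were in all 10, beside 27.0% of all protein-coding genes. Keap1, the adaptor that marks NFE2L2 for degradation, was in 6 libraries. Among 12 well-known target genes, the promoters of Nqo1, Gclm, Txnrd1 and Ftl1 were in all 10 libraries, beside the same 27.0% of all genes. The other 8 were in some, including Hmox1, which encodes heme oxygenase and is repressed by BACH1, in 9. By the exact permutation test, 2 of 11 tested targets had an unadjusted p under 0.05, beside 4.24% of 9468 promoters. They were Txnrd1, upward (rho 0.66, exact permutation p = 0.0447), and Me1, downward (rho −0.79, exact permutation p = 0.0111). The Me1 promoter was listed in 4 libraries, both at 0 h, replicate 1 at 2 h and replicate 2 at 6 h. All other libraries were set to rank 19860, so its rho rests largely on where a peak was listed. In either direction, 0 targets passed after adjustment of the exact permutation test (exact permutation test, adjusted p = 1). None of the 6 control genes reached an unadjusted p under 0.05.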

How the data were processed

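ATAC-seq was performed on 10 libraries, 2 at each of 0, 2, 6, 12 and 24 h, and the sample titles gave the group and the replicate number of each. Per the labels and the methods, the authors aligned reads to mouse build mm10, kept uniquely placed reads and called peaks with MACS2 in each library alone. The methods name Bowtie2, whereas the submitters' processing notes name Bowtie 1.0.0 and Picard and the peak names carry the word bowtie1, so the aligner is not settled. No shift for the Tn5 cut is stated, so summits may be off by some bases. The deposited score is −log10 of the q-value of each peak, with a lowest value of 1.30, and the deposited positions are 1 bp summits without widths, counts or depth.

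Summits on chromosomes 1 to 19, X and Y were widened by 250 bp on each side to 501 bp and merged over the 10 lists. The 4 or 5 peaks of each list on any other sequence were left out. Promoters lay within 1 kb of 54327 protein-coding transcript starts (GENCODE M21, GRCm38 patch level of mm10, checked on 21 chromosomes). Trends were tested by exact permutation of Spearman's rho with hours (two-sided), over regions or promoters in at least 2 libraries, with unlisted libraries set to rank 19860 and Benjamini-Hochberg adjustment over each whole table, in Python 3.11.15, numpy 2.4.6 and pandas 2.3.3. The test was run on simulated data in which planted regions moved steadily with hours. Those planted regions had no unlisted libraries and no difference between replicate numbers, so the check does not cover these features of the data. Over the 6234 regions in all libraries, the deviations of same-numbered libraries from their group means correlated at r 0.217 to 0.384 for all 10 pairs of time points (median 0.321). Same-numbered libraries thus shared some variation, and a fit with the replicate block was made as an alternative. The sample titles do not say what those libraries had in common.

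The 8 genes and the gene lists were chosen with earlier results of these data known. Regions named with positions were the genes' promoter regions in at least 2 libraries, regions gained or lost at any time, up to 2 best-ranked distal regions per gene in all 10 libraries, and regions with an unadjusted trend p under 0.05 in at least 5 libraries. Alternatives were lists of equal size, other region widths, promoter distances and windows, no minimum number of libraries, and leaving out each library or both 24 h libraries. Figures were drawn with matplotlib 3.10.9. Some genes of the marker and relative lists are not reported here.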

Additional observations from a re-analysis of the deposited data

How the results depend on the processing

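Counts of gained and lost regions are small and depend on how lists are cut and merged, and depth, which is unknown, limits what a missing peak means. With every list cut to the same size, the windows held 73 regions. Gained regions moved to 2 at 2 h, 3 at 6 h and 0 at 12 h, and lost ones to 3, 2, 2 and 1 in order of time. The share of all regions gained or lost was not computed for this setting or the alternatives below. Widening summits by 100 bp gave 120 regions with 2 lost at 2 h, and by 500 bp gave 91 regions with 0 lost at 2 h and 1 at 24 h. Windows reaching 50 kb beyond the genes held 62 regions, 3 gained at 6 h and 0 at 12 h. Leaving out 1 library at a time gave 92 to 101 regions and 5 to 6 promoters in all libraries left. By construction a rule with 1 library on one side is looser: gained regions ran from 4 to 10 at 2 h, 5 to 16 at 6 h, 2 to 11 at 12 h and 2 to 15 at 24 h, and lost ones from 1 to 5, 0 to 5, 1 to 8 and 2 to 9. The highest gained counts came without 0 h replicate 1 or 2 h replicate 2 (10 each), 6 h replicate 1 (16), 12 h replicate 1 (11) and 24 h replicate 2 (15), and the highest lost counts without 0 h replicate 2 or 2 h replicate 1 (5 each), 6 h replicate 2 (5), 12 h replicate 2 (8) and 0 h replicate 2 (9 at 24 h). No trend passed adjustment without any 1 library (0 to 0 of the 8 genes or their regions). With the replicate block, 0 regions, promoters or distal counts passed after adjustment by the exact permutation test, with 1323, 409 and 534 at an unadjusted p under 0.05 over all features, and it changed no other call. The rho of the Maff promoter ran from 0.45 to 0.75 and that of Nfe2 −49.0 kb from −0.89 to −0.70 without 1 library at a time. With the replicate block, a setting chosen for these 2 after seeing the data, rho was 0.45 (exact permutation p = 0.246) and −0.85 (exact permutation p = 0.00667, adjusted p = 0.409).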
